A study of Mus musculus with 9 samples.

Results

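This comparison sets 3 libraries from the substantia nigra of mice that ran on a wheel against all 6 libraries from mice that did not. The running group received MPTP-HCl, a toxin that damages dopaminergic neurons, given intraperitoneally for 5 weeks with 2 doses of 20 mg/kg each week. This group had access to a wheel for 2 months, counted from the first dose. The sedentary libraries were 3 from mice with the same MPTP injections and no wheel, and 3 from vehicle mice injected with saline at the same times. Each library is spoken of below as 1 mouse, an assumption that the labels do not state. The sources used here do not give strain, age or sex. The members are chosen by the wheel alone, 3 of 9 libraries, and genes were compared where the mean was at least 0.5 FPKM over the 9 libraries, which kept 15997 of 55335 genes. FPKM counts fragments relative to gene length and library size. The FPKM sums still differed, at 331120 to 344050 in running libraries, 326610 to 347520 in sedentary MPTP and 318420 to 319430 in vehicle. Small differences between libraries therefore depend on the scaling. No vehicle mouse ran. All runners but only 3 of the 6 sedentary mice had MPTP, so the pooled difference holds running together with part of the MPTP effect. The leading genes and the medians of many lists are therefore also given against each sedentary group. The remaining list medians are pooled only and need not hold against each group. Other genes are given against the pooled sedentary range.

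The substantia nigra holds the dopaminergic neurons that are lost in Parkinson disease, embedded in glia, inhibitory neurons and a dense capillary bed. Capillaries are built of endothelial cells joined by cadherin and wrapped in pericytes and a basement membrane of laminin, type IV collagen and fibronectin. Voluntary running is known to act on brain blood vessels, trophic factors and mitochondria. In bulk tissue, fewer cells of a type and less RNA per cell cannot be told apart.

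The libraries were of similar depth and similar to each other. Steps between low FPKM values place them at about 22400000 to 27200000 fragments, if FPKM were scaled to the counted fragments. On the log2(FPKM + 1) scale, Pearson's r over genes was 0.966 to 0.982 within the running libraries (3 pairs) and 0.956 to 0.978 within the sedentary libraries (15 pairs). Levels of regional markers varied between libraries, and whether the dissected tissue differed was not tested. Slc6a3, the dopamine transporter that marks dopaminergic neurons, was at 0.149, 0 and 10.6 FPKM in the running libraries, 2.75, 0.0377 and 14.4 in sedentary MPTP and 3.404, 1.41 and 10.8 in vehicle. Thus 2 of the 3 running libraries and 1 sedentary library were nearly without this defining marker. Hoxa5 and Hoxb5, which mark the hindbrain, were at 9.60 and 10.006 FPKM in running library 2, at most 2.22 and 1.88 elsewhere, and listed at 0 in running libraries 1 and 3. For some results the values without running library 2 are given as well.

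No gene passed the test between running and sedentary libraries (limma, Benjamini-Hochberg adjusted p, threshold 0.05; smallest adjusted p = 0.438), and leaving out 1 library gave 0 to 1 (1 without MPTP sedentary library 2 or 3, running library 1 or 2, or vehicle library 1 or 2). At an unadjusted p under 0.05, 807 genes differed, 5.04% of those tested, of which 310 were higher (1.94%) and 497 lower (3.11%) in runners. Against sedentary MPTP mice alone limma also called 0 genes, with 639 at an unadjusted p under 0.05 (3.99%) and a smallest limma adjusted p of 0.0820. Leaving out 1 library gave 0 to 25 there, the 25 without MPTP sedentary library 1. Against vehicle mice alone limma called 0, with 1047 at an unadjusted p under 0.05 (6.54%) and a smallest limma adjusted p of 0.753, and leaving out 1 library gave 0 to 2. An unadjusted p under 0.05 against each sedentary group separately, in the same direction, was reached by 62 higher (0.388%) and 128 lower genes (0.8%). In 390 genes (2.44%) all 3 running values lay outside the range of the 6 sedentary values, 130 above it (0.813%) and 260 below it (1.63%). Leaving out 1 library gave 481 to 1573 such genes, with 1573 without running library 2, 1466 without MPTP sedentary library 2, 1035 and 832 without running libraries 3 and 1, and 591 without vehicle library 1. By that rule the 390 genes separate the runners from both sedentary groups. The genes named below as above or below the sedentary range belong to them. If group labels were shuffled among the 9 libraries, a gene would be separated in this way with a probability of 0.0238. The 2.44% found is near that share, and the 5.04% at an unadjusted p under 0.05 is near its threshold. Over all genes the running mean was higher in 43.3% and lower in 56.7%. That split moved with the scaling, to 32.2% higher when libraries were brought to the same FPKM sum and to 50.6% with median-ratio scaling.

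Among the 12 higher genes Mapre2 had the largest difference. It encodes EB2, a protein that tracks the growing ends of microtubules. Mapre2 (ENSMUSG00000024277, protein coding; GRCm38 chromosome 18, 23752333 to 23893861, plus strand) was at 23.5, 24.1 and 24.6 FPKM in running libraries, 8.22, 6.48 and 14.1 in sedentary MPTP and 9.36, 8.57 and 10.6 in vehicle. All 3 runners thus lay in a narrow band above every sedentary mouse, with means of 24.1 ± 0.563 (SD, n = 3) and 9.55 ± 2.59 FPKM (n = 6). The difference was 1.28 on the log2(FPKM + 1) scale (SE 0.19), 1.31 against sedentary MPTP and 1.26 against vehicle, and it did not pass (limma adjusted p = 0.438). Without MPTP sedentary library 3, the sedentary library with the highest value, the difference was 1.43 and passed (limma adjusted p = 0.0126). Its paralogs, named after their values were seen, did not separate the groups. Mapre1 was at 11.3 ± 0.868 FPKM in runners and 10.8 ± 0.472 in sedentary mice. Mapre3, the neuronal family member, was at 24.7 ± 0.267 and 25.1 ± 1.07 FPKM.

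None of the other 11 higher genes passed. Timm10, a chaperone that carries proteins across the space between the mitochondrial membranes, was at 24.0, 22.1 and 21.7 FPKM in runners, 16.04, 21.1 and 17.1 in sedentary MPTP and 15.6, 16.4 and 16.5 in vehicle. Its nearest sedentary library, MPTP sedentary 2, lay just under the lowest runner (difference 0.39, SE 0.09, limma adjusted p = 0.939, and 0.32 against sedentary MPTP and 0.46 against vehicle). Mrpl32, a protein of the mitochondrial ribosome, was at 2.56, 3.07 and 2.74 FPKM in runners and 1.41 to 2.13 in sedentary libraries (difference 0.35 against sedentary MPTP and 0.56 against vehicle). Romo1, a small inner-membrane protein, was at 20.4, 21.0 and 21.9 FPKM against 15.8 to 19.1 (0.28 against sedentary MPTP and 0.32 against vehicle). Fam162a, a mitochondrial protein induced by low oxygen, was at 20.8, 23.9 and 22.95 FPKM against 15.9 to 19.9 (0.35 and 0.29 in the same order). All of these were clear of the sedentary range, by small margins.

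The other higher genes had other roles. Knop1, a nucleolar protein, was at 4.46, 4.76 and 4.25 FPKM in runners and 2.64 to 3.27 in sedentary libraries (difference 0.47, SE 0.07, limma adjusted p = 0.438, and 0.52 against sedentary MPTP and 0.42 against vehicle). Its exons overlap those of Vps35l and Iqck on the opposite strand, and without stated strand-specific counting the reads cannot be told apart. Sdcbp, the adaptor syntenin of exosome formation, was at 25.8, 27.6 and 25.8 FPKM against 17.5 to 23.3 (0.33 and 0.45 in the same order). Dpm3 belongs to the enzyme that makes the mannose donor of glycosylation. It was at 7.89, 6.76 and 6.99 FPKM against 4.89 to 6.03 (0.31 and 0.41). Pfkfb4, which sets the level of a glycolysis activator, was at 1.96, 2.40 and 2.26 FPKM against 1.31 to 1.93 (0.34 and 0.35), a gap narrower than the spread of either group. Tmem160 completes the protein-coding genes, at 10.6 to 11.8 FPKM in runners (0.43 and 0.48). Snrpert and Atp5l2-ps are processed pseudogenes, whose reads may belong to their parent genes.

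**Figure D1:**
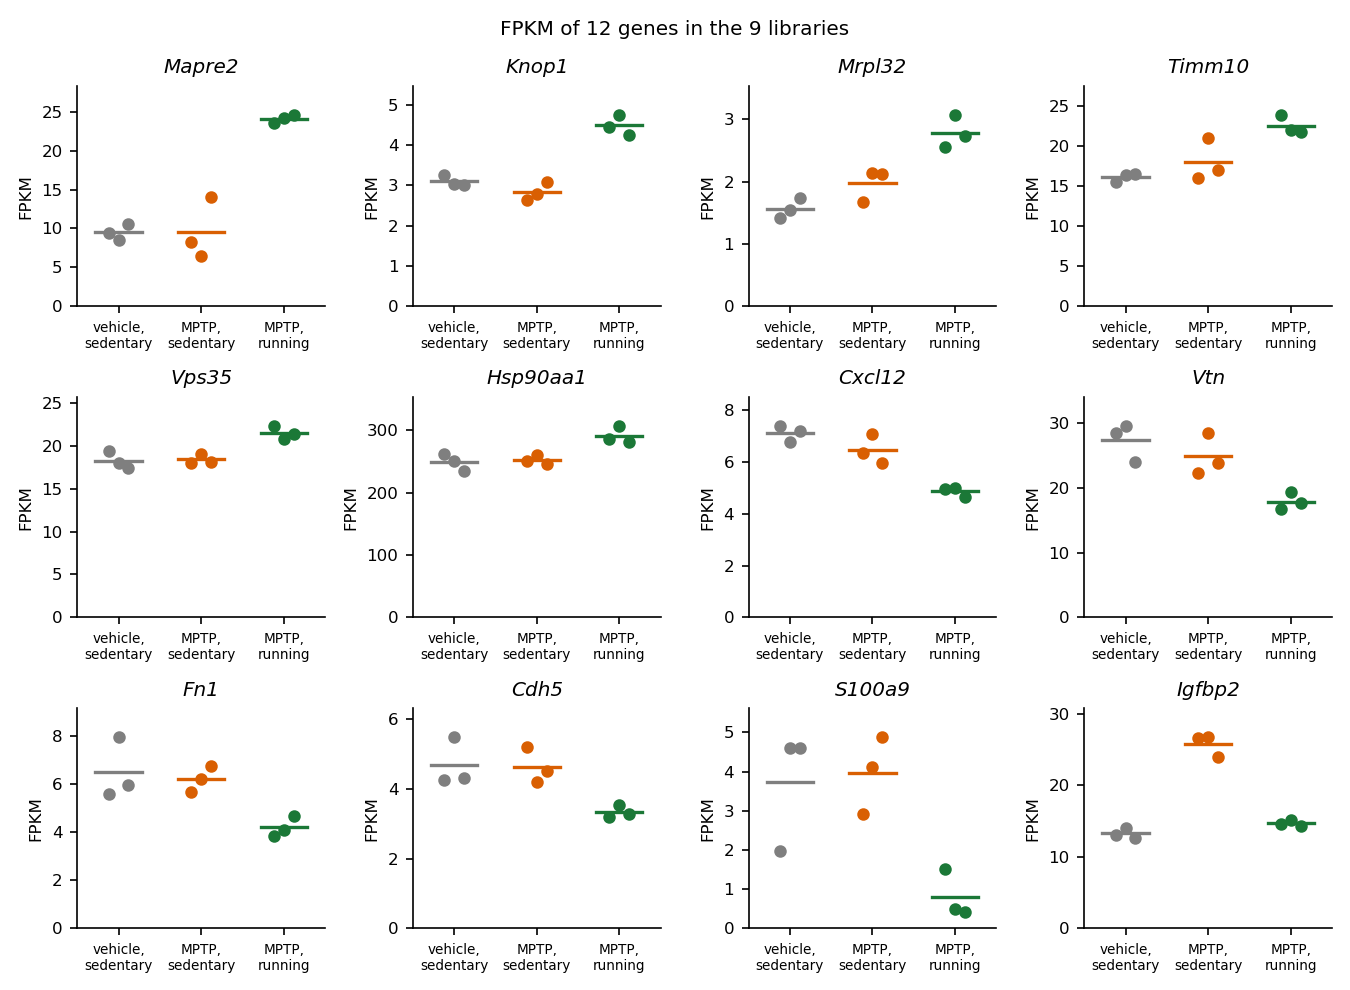
FPKM (y axis, from 0) of 12 genes in the 3 vehicle, 3 sedentary MPTP and 3 running libraries, each point 1 library and each bar the group mean. Mapre2 sits at 23.5 to 24.6 FPKM in all runners and at 14.1 or less elsewhere, while Igfbp2 sits at 14.4 to 15.2 FPKM in runners, close to vehicle and below sedentary MPTP.

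Of the 12 lower genes, none passed. S100a9, Vtn, Pdgfrb and Fn1 are described with their lists. Cxcl12, a chemokine made by vessel and stromal cells, was at 4.98, 5.00 and 4.65 FPKM in runners, 6.37, 7.11 and 5.99 in sedentary MPTP and 7.41, 6.78 and 7.21 in vehicle. Both sedentary groups lay above every runner (difference −0.41, SE 0.07, limma adjusted p = 0.830, and −0.35 against sedentary MPTP and −0.47 against vehicle). Reck, a membrane inhibitor of matrix metalloproteinases, was at 2.01, 1.97 and 2.22 FPKM in runners and 2.80 to 3.43 in sedentary libraries (−0.41 against sedentary MPTP and −0.39 against vehicle). Bgn, the matrix proteoglycan biglycan, was at 1.58, 1.42 and 1.92 FPKM against 2.26 to 3.76 (−0.47 and −0.61 in the same order). Bmp6, a secreted factor of the TGF-beta family, was at 1.92, 1.55 and 2.003 FPKM against 2.20 to 3.93 (−0.59 and −0.34).

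The remaining lower genes have other roles. Adprhl2, which removes ADP-ribose from proteins, was at 3.44, 3.62 and 4.10 FPKM in runners and 4.90 to 7.01 in sedentary libraries (difference −0.52, SE 0.09, limma adjusted p = 0.830, and −0.62 against sedentary MPTP and −0.42 against vehicle). Cux2, a transcription factor of upper-layer cortical neurons, was at 4.05, 3.88 and 3.79 FPKM against 5.12 to 6.52 (−0.47 and −0.42 in the same order). Of the 20 hippocampal and cortical markers, Cux2 included, 15 were higher in runners (median 0.19, with 0.03 against sedentary MPTP and 0.30 against vehicle). Without vehicle library 1 that median turned to −0.046, with 9 of 20 higher. Gpr146, a receptor linked to lipid metabolism, was at 0.878, 1.93 and 1.96 FPKM against 2.59 to 3.78 (−0.87 against sedentary MPTP and −0.69 against vehicle). The Myl12b entry that was lower (ENSMUSG00000117098) shares its exons with Myl12b and Myl12a, and its value is uncertain.

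Most endothelial genes were lower in runners, more uniformly against sedentary MPTP than against vehicle. Of the 22 endothelial markers, 18 had a lower running mean, and 5 lay below all 6 sedentary libraries (22.7%, against 1.63% of all genes). All 22 were lower against sedentary MPTP, while against vehicle 14 were lower and 8 higher. Thus 14 of the 22 were lower than each sedentary group, as were 39.3% of all genes. No member passed (10 were lower at an unadjusted p under 0.05, against 3.11% of all genes, and 0 higher). The median difference of the list was −0.18, −0.23 against sedentary MPTP and −0.14 against vehicle, beside −0.02 over all genes. Cdh5, the cadherin of endothelial junctions, was at 3.20, 3.52 and 3.27 FPKM in runners, 5.20, 4.19 and 4.51 in sedentary MPTP and 4.26, 5.49 and 4.31 in vehicle. The groups did not overlap (difference −0.38, SE 0.09, limma adjusted p = 0.939). Pecam1, a cell adhesion molecule of endothelium, was at 2.33, 3.20 and 2.89 FPKM in runners, 3.75, 3.88 and 4.42 in sedentary MPTP and 3.85, 4.28 and 3.49 in vehicle.

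Flt1, Tek and Vwf of this list also lay below the sedentary range, and none passed. Flt1, a receptor for vascular endothelial growth factor, was at 4.65, 5.65 and 5.10 FPKM in runners and 5.93 to 6.98 in sedentary libraries (−0.29 against sedentary MPTP and −0.29 against vehicle). Tek, the receptor for angiopoietins, was at 2.91, 3.64 and 3.12 FPKM against 3.95 to 4.46 (−0.29 and −0.29 in the same order). Vwf, the clotting factor stored in endothelial cells, was at 0.764, 1.10 and 0.843 FPKM against 1.22 to 2.70 (−0.60 and −0.50). Running library 1 was the lowest in all 5 genes. Without it the list median was −0.11 and 5 members lay below the sedentary range, as did 3.13% of all genes. Without running library 2 the median was −0.26 and 9 members lay below, beside 6.02% of all genes. The mean log2(FPKM + 1) of the list overlapped between groups, at 2.47, 2.70 and 2.52 in runners and 2.61 to 2.86 in sedentary libraries.

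The sequences upstream of Flt1 and Tek are shown because endothelial promoters are known to carry ETS motifs, and these are the 2 of the 5 separated endothelial genes that have a window in RefSeq. Over windows from 250 bases before to 50 after the transcription start (RefSeq, GRCm38.p6), the letters AGGAAG were found on either strand in 11 of the 17 endothelial genes with a window. The share among all 27025 genes with a window was 38.4%. The 250 bases upstream of Flt1 (chr5:147726012-147726261, minus strand) hold 2 matches, printed in capitals. Those upstream of Tek (chr4:94739039-94739288, plus strand) hold 0. A match describes the letters only.
Flt1: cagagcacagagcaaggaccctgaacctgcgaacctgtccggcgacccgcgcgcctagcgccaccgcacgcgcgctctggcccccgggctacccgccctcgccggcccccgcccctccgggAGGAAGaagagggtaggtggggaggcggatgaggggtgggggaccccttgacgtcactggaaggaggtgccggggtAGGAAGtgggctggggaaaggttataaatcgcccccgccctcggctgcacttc
Tek: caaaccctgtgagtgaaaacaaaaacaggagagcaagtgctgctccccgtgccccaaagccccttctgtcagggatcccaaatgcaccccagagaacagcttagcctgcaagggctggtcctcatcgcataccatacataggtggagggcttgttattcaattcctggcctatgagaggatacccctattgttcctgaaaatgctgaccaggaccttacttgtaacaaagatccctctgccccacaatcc

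Mural cells and fibroblasts showed lower values as well. Of 21 markers of pericytes, smooth muscle and fibroblasts, 19 were lower in runners than in each sedentary group (39.3% of all genes were), and 6 lay below all sedentary libraries (28.6%, against 1.63% of all genes). The median difference was −0.30 against both groups pooled and −0.30 against each of them, and 9 members were lower at an unadjusted p under 0.05 (limma; 3.11% of all genes were), with 0 past the threshold. Pdgfrb, the growth factor receptor that defines pericytes, was at 3.35, 3.82 and 3.81 FPKM in runners, 5.16, 4.84 and 4.77 in sedentary MPTP and 4.50, 5.08 and 4.83 in vehicle. Vtn, the adhesive protein vitronectin that brain pericytes secrete, was at 16.7, 19.4 and 17.7 FPKM in runners, 22.3, 28.5 and 23.9 in sedentary MPTP and 28.6, 29.6 and 24.0 in vehicle. Neither gene overlapped between runners and sedentary mice (Vtn difference −0.52, SE 0.10; Pdgfrb −0.33, SE 0.07; limma adjusted p = 0.939 for both).

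Contractile and fibrous genes of the same list were lower too. Myl9, a light chain of smooth muscle myosin, was at 9.32, 11.4 and 11.3 FPKM in runners and 11.7 to 18.2 in sedentary libraries. Myh11, the heavy chain that marks smooth muscle, was at 1.12, 1.65 and 1.73 FPKM against 1.74 to 3.83, with almost no gap. Col1a1 and Col1a2, the chains of type I collagen made by fibroblasts, were at 0.827 to 1.24 and 0.959 to 1.34 FPKM in runners. In sedentary libraries they were at 1.52 to 3.90 and 1.36 to 2.82 FPKM. The list median stayed between −0.42 and −0.20 in all 21 alternatives, including each left-out library.

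The extracellular matrix list, which shares 4 genes with the mural list, had 24 of 26 members lower in runners, and 19 of 26 without running library 2. Its median was −0.16 against both groups pooled, −0.16 against sedentary MPTP and −0.19 against vehicle, 6 members lay below all sedentary libraries (23.1%, against 1.63% of all genes) and 7 were lower at an unadjusted p under 0.05 (against 3.11% of all genes). Fn1, fibronectin, was at 3.84, 4.09 and 4.68 FPKM in runners, 5.65, 6.21 and 6.76 in sedentary MPTP and 5.60, 7.97 and 5.94 in vehicle (difference −0.49, SE 0.11, limma adjusted p = 0.939). Mmp2, a gelatinase, was at 0.587, 0.747 and 0.746 FPKM against 1.03 to 1.47 in sedentary libraries. Mmp14, the membrane protease that activates Mmp2, was at 1.89, 2.01 and 2.01 FPKM against 2.14 to 3.13. Col18a1, the collagen that gives rise to endostatin, was at 0.735 to 0.923 FPKM against 0.938 to 2.09. Matrix proteins, their proteases and the protease inhibitor Reck thus lay on the same side.

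Basement membrane chains were counted as families added after the values were seen. The laminin and collagen families share 3 and 8 genes with the matrix list. All 10 tested laminin chains were lower in runners than in each sedentary group (median −0.15; 39.3% of all genes were). Lamc3 and Lama5 lay below the sedentary range (20%, against 1.63% of all genes). Lamc3 was at 0.309, 0.691 and 0.566 FPKM in runners and 0.871 to 1.34 in sedentary libraries. Of the 29 tested collagen genes, 28 were lower (median −0.21), as were 56.7% of all genes. Among them were the 3 tested type IV chains Col4a1, Col4a2 and Col4a5. Over 21 alternatives the laminin median ranged from −0.35 to −0.09 and the collagen median from −0.32 to −0.15.

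**Figure D2:**
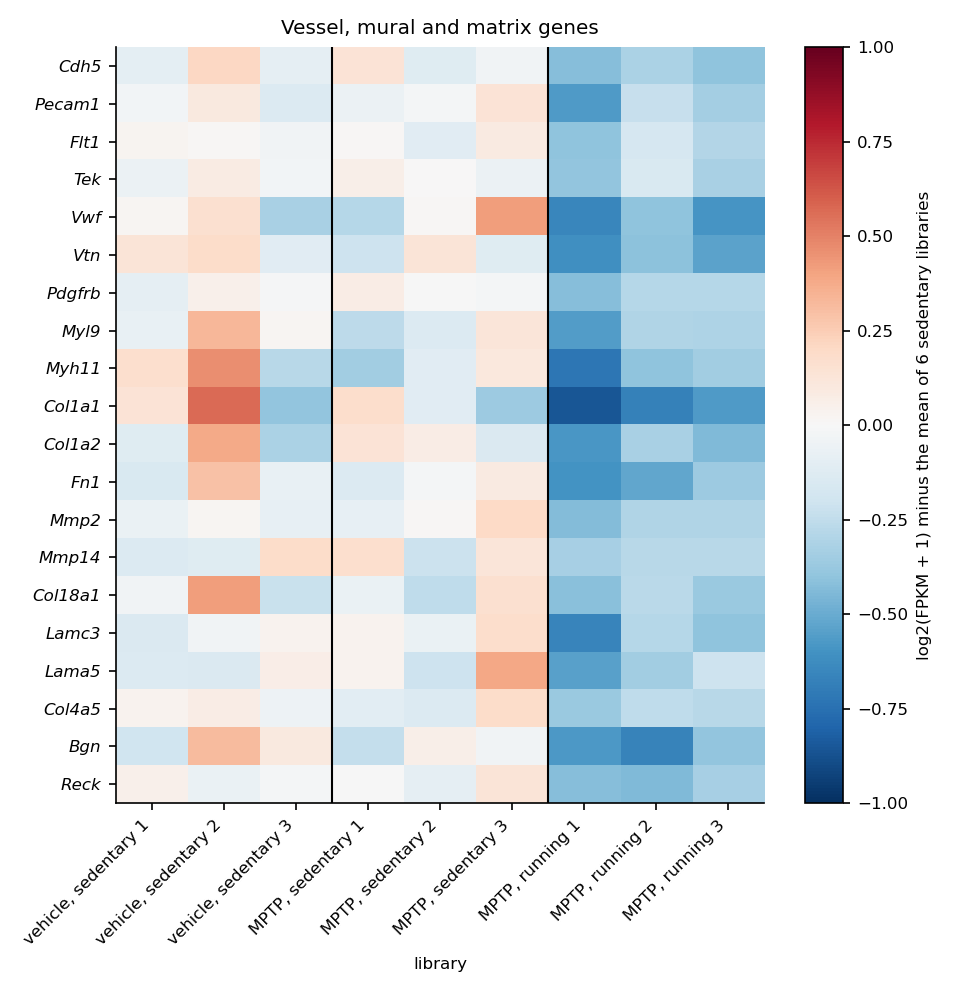
log2(FPKM + 1) of 20 vessel, mural and matrix genes (rows) in each of the 9 libraries (columns), as the difference from the mean of the 6 sedentary libraries, blue for lower. The genes were chosen for lying below the sedentary range, so the 3 running columns are blue by choice, and the picture shows the spread among libraries, with running library 1 lowest in most rows.

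Of all lists, genes of blood-borne cells had the largest pooled median difference. S100a8 and S100a9 encode the calprotectin subunits that fill neutrophils, and Ngp is a neutrophil granule protein. S100a9 was at 1.51, 0.495 and 0.429 FPKM in runners, 2.91, 4.12 and 4.89 in sedentary MPTP and 1.97, 4.61 and 4.59 in vehicle. S100a8 was at 0.337 and 0.128 FPKM in runners 1 and 2, listed at 0 in runner 3, 1.16, 1.67 and 1.24 in sedentary MPTP and 1.22, 1.12 and 0.704 in vehicle. Both genes separated every runner from every sedentary mouse (S100a8 difference −0.92, SE 0.13, limma adjusted p = 0.438; S100a9 −1.43, SE 0.26, limma adjusted p = 0.830). Ngp was at 0.211, 0.160 and 0.152 FPKM in runners and 0.543 to 1.65 in sedentary libraries. Of the 9 tested neutrophil and red cell genes these 3 lay below the sedentary range (33.3%, against 1.63% of all genes). S100a9 was named by that rule, so its lack of overlap was fixed by the choice. These 3 genes are at low levels, and the scale of log2(FPKM + 1) understates their ratio.

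Red blood cell genes showed a different pattern. Hba-a1, an alpha chain of hemoglobin, was at 3.05, 2.24 and 10.9 FPKM in runners, 8.24, 12.2 and 9.78 in sedentary MPTP and 14.0, 15.9 and 107 in vehicle. Runners 1 and 2 were the lowest, runner 3 lay among the sedentary mice, and vehicle library 3 stood far above all others. Of the 9 tested neutrophil and red cell genes 8 were lower, as were 56.7% of all genes. Their median was −1.39, with −0.89 against sedentary MPTP and −1.37 against vehicle. Without vehicle library 3 the pooled median was −1.03 over 8 genes. The summed level of the list was 33.9 to 65.1 FPKM in runners, 55.5 to 80.7 in sedentary MPTP and 74.0 to 463 in vehicle. Whether the amount of blood left in the tissue has a part in the vessel and neutrophil values was not tested. Border macrophage and monocyte markers were lower in 5 of 5 tested genes, out of 13 listed (median −0.21), as were 56.7% of all genes. All 5 were lower than each sedentary group, as were 39.3% of all genes. Only 2 of them had a mean of at least 1 FPKM. Cbr2, an enzyme typical of these macrophages, was at 0.672, 0.445 and 0.356 FPKM in runners and 0.807 to 3.12 in sedentary libraries. It was the 1 member below the sedentary range (20%, against 1.63% of all genes).

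The upstream sequences of the calprotectin pair are shown because both genes were separated in the same direction and lie near each other on chromosome 3. C/EBP factors, which drive neutrophil granule genes, bind sites close to TTNNGCAA. These letters were found on either strand in 3 of the 9 tested neutrophil and red cell genes and in 12.2% of all genes with a window. The 250 bases upstream of S100a8 (chr3:90668821-90669070, plus strand) hold none. Those of S100a9 (chr3:90695722-90695971, minus strand) hold 1, in capitals.
S100a8: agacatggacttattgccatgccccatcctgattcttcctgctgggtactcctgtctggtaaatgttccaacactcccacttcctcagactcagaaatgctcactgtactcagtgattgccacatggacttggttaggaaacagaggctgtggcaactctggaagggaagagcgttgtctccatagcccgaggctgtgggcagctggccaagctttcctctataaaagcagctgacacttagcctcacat
S100a9: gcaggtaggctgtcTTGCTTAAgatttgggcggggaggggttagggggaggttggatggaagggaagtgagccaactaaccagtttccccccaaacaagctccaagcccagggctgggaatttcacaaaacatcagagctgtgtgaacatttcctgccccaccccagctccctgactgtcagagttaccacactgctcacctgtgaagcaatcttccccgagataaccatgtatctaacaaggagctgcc

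**Figure D3:**
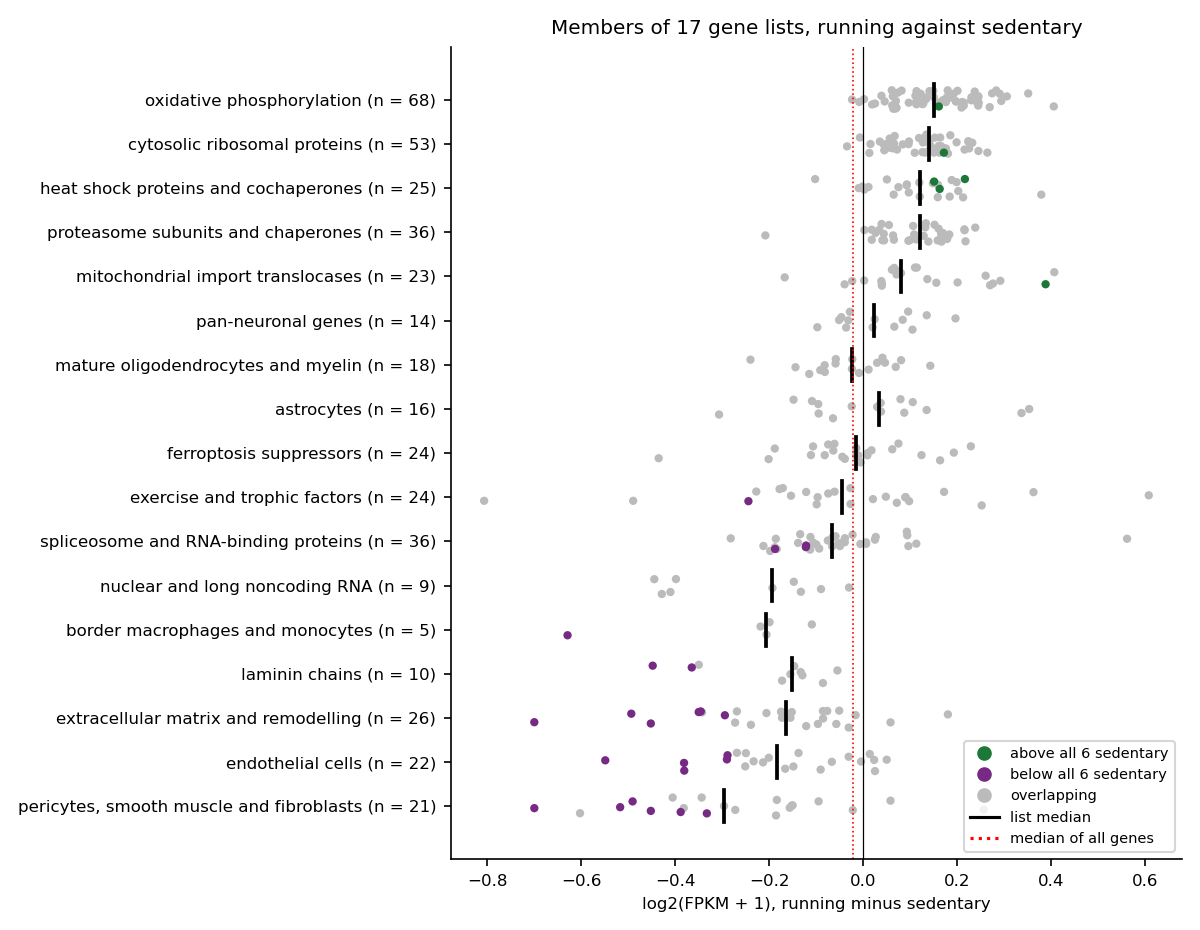
Difference of log2(FPKM + 1) between running and sedentary libraries (x axis) for each tested member of 17 gene lists (rows), with list medians as black bars and the median of all genes as a dotted line. Purple members lie below and green members above all 6 sedentary libraries. The vessel, mural and matrix lists sit left of the dotted line and the respiratory and ribosomal lists right of it, while neurons and glia straddle it.

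Heat shock genes were higher in runners. Of the 25 heat shock proteins and cochaperones, 22 had a higher running mean, with a median of 0.12 (0.11 against sedentary MPTP, 0.13 against vehicle). Of these, 3 lay above all sedentary libraries (12%, against 0.813% of all genes), and 2 were higher at an unadjusted p under 0.05 (limma, 0 past the threshold; 1.94% of all genes were higher at that p). Hsp90aa1, the stress-inducible cytosolic Hsp90, was at 286, 307 and 280.3 FPKM in runners, 250.1, 261 and 246 in sedentary MPTP and 261, 250.1 and 235 in vehicle. Dnaja1, a cochaperone that hands clients to Hsp70, was at 31.3, 32.5 and 30.6 FPKM in runners and 26.4 to 29.3 in sedentary libraries. Ahsa1, the activator of the Hsp90 ATPase, was at 22.8, 23.9 and 23.1 FPKM against 19.0 to 22.7. The differences of these 3 members were 0.15 to 0.22. Without running library 2 the count of higher members was 16 of 25.

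Respiratory chain genes of the nucleus were higher in runners in nearly every case, by small amounts. Of 68 subunits, 66 were higher than the sedentary mean and 58 were higher than each sedentary group (29.7% of all genes were), with a median of 0.15 (0.08 against sedentary MPTP, 0.23 against vehicle). Without running library 2, 57 of 68 were higher than the sedentary mean (median 0.12). With all libraries kept, only Uqcrc2, a core protein of complex III, lay above all sedentary libraries, at 76.9, 82.1 and 80.8 FPKM against 65.7 to 76.8. That is 1.47% of the list, against 0.813% of all genes. Ndufa3, a complex I subunit with the smallest p of the list, was at 39.5, 37.5 and 47.2 FPKM in runners, 31.0, 38.6 and 32.2 in sedentary MPTP and 32.7, 30.7 and 28.2 in vehicle (difference 0.35, SE 0.10, limma adjusted p = 0.939). MPTP sedentary library 2 reached the runners, and the others stayed below. Cox5b, of complex IV, was at 79.5, 81.4 and 80.6 FPKM in runners, and again only this sedentary library, at 82.2, was as high. Without it, 26 of the 68 lay above the remaining sedentary libraries, beside 3.66% of all genes. The 13 genes of the mitochondrial genome had a median of 0.04.

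Ribosomal and proteasome genes followed the same shape. Of 53 cytosolic ribosomal proteins, 51 were higher (median 0.14, 0.06 against sedentary MPTP and 0.22 against vehicle). Rpl15 was the single member above the sedentary range (1.89%, against 0.813% of all genes). It was at 51.1, 48.3 and 48.2 FPKM in runners, 44.5, 45.1 and 47.0 in sedentary MPTP and 42.1, 41.0 and 41.8 in vehicle. Families added after the values were seen included 36 proteasome subunits and chaperones, of which 35 were higher. Their median was 0.12, with 0.07 against sedentary MPTP and 0.19 against vehicle. Of 23 mitochondrial import proteins, 20 were higher (median 0.08, 0.05 against sedentary MPTP and 0.11 against vehicle). Mitochondrial ribosomal proteins were higher in 58 of 78 (median 0.07, 0.03 against sedentary MPTP and 0.13 against vehicle). With libraries brought to the same FPKM sum, the counts of these 3 families were 26, 16 and 48, with 32.2% of all genes higher. Without running library 2 they were 29, 19 and 50. The medians of the respiratory and ribosomal lists stayed above 0 in all 21 alternatives, from 0.09 to 0.20 and from 0.07 to 0.18.

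Of the respiratory genes 59 of 68, and of the cytosolic ribosomal genes 48 of 53, had a merged exon length under the median of all genes, and the comparison varied with that length. Genes were split into 5 equal classes by it, and the median difference was 0.03 in the shortest class and −0.06 in the longest. Against sedentary MPTP the same medians were 0.01 and −0.01, and against vehicle 0.06 and −0.10. The shortest class minus the longest class came to 0.11, 0.04 and 0.03 in the running libraries, −0.03, 0.21 and −0.07 in sedentary MPTP and −0.08, −0.09 and −0.12 in vehicle. Genes above the sedentary range had a median exon length of 2650 bases and those below it 4540.5 bases, against 3930 over all. After each library was centred within 20 classes of length, 66 of 68 respiratory genes were higher (median 0.13) and 50 of 53 ribosomal genes (median 0.13). Under the same centring 18 of 22 endothelial genes were lower (median −0.15) and 19 of 21 mural genes (median −0.26). Of these, 3 and 4 members lay below the sedentary range in place of 5 and 6 (1.35% of all genes were below it under this centring). The matrix families, made of longer genes, moved toward 0. Centred, 20 of 26 matrix genes were lower (median −0.12, from −0.16 uncentred). So were 10 of 10 laminin chains (−0.09, from −0.15) and 27 of 29 collagens (−0.15, from −0.21).

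**Figure D4:**
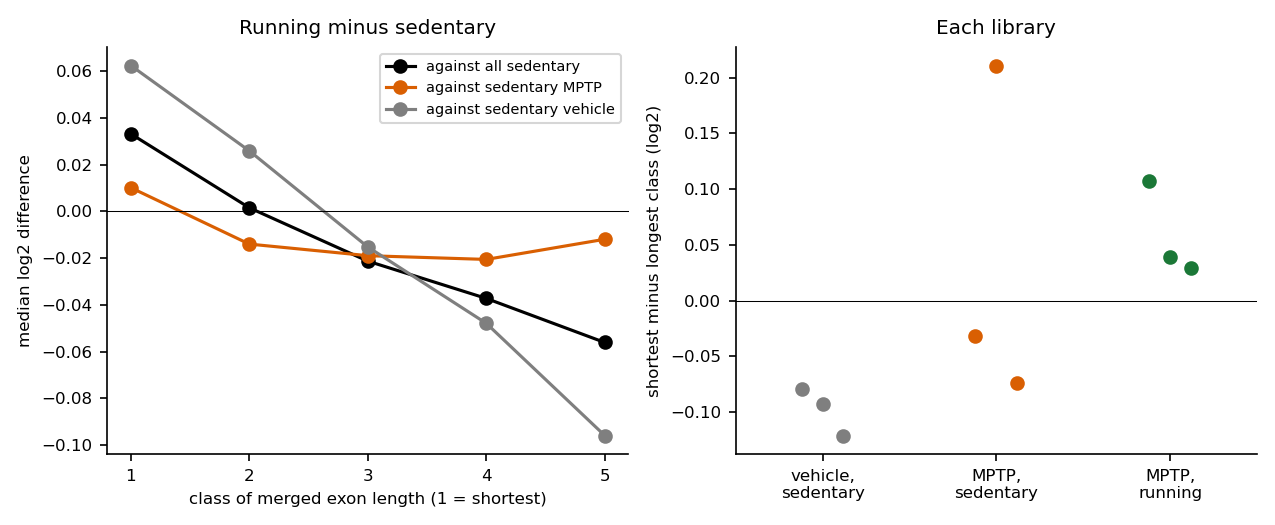
Left, median log2 difference of runners (y axis) in 5 classes of merged exon length (x axis, 1 the shortest), against all sedentary libraries, sedentary MPTP and vehicle. Right, the shortest class minus the longest class in each library: runners lie between 0.03 and 0.11, vehicle libraries between −0.12 and −0.08, and MPTP sedentary library 2 at 0.21.

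Spliceosome and RNA-binding genes differed by small amounts. Of 36 genes, 27 were lower (median −0.066), with medians of −0.018 against sedentary MPTP (21 lower) and −0.12 against vehicle (30 lower). Centred by length class, 22 were lower and the median was −0.018, beside 0.0025 over all genes. In the uncentred values 3 lay below all sedentary libraries (8.33%, against 1.63%). Snrnp70, the core protein of the U1 particle, was at 13.1, 13.9 and 13.8 FPKM in runners and 14.2 to 17.8 in sedentary libraries. The splicing factor Srsf6 was at 21.4, 21.6 and 21.5 FPKM against 22.3 to 26.4, and Srsf2 at 28.3 to 29.3 against 29.9 to 33.7. All 9 tested nuclear and long noncoding RNAs were lower (median −0.19). Snhg11, a neuronal noncoding RNA, was at 133, 136 and 129.8 FPKM in runners, 173, 135 and 189.7 in sedentary MPTP and 170.3, 193 and 199.8 in vehicle. MPTP sedentary library 2, which has the strongest tilt toward short genes, again sat with the runners. Centred by length class, 8 of the 9 noncoding RNAs were lower (median −0.15).

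Trophic factors known from exercise studies were on both sides. Of 24 tested genes, 10 were higher and 14 lower in runners (median −0.04). The median was −0.08 against sedentary MPTP, with 14 lower, and 0.03 against vehicle, with 14 higher. In the pooled comparison 4 were lower at an unadjusted p under 0.05 (limma), as were 3.11% of all genes, and 0 passed the threshold. Bdnf, the neurotrophin most often tied to running, was at 5.08, 2.67 and 4.73 FPKM in runners, 2.19, 3.56 and 2.93 in sedentary MPTP and 2.45, 3.86 and 2.79 in vehicle. Runners 1 and 3 were the highest of all 9, and runner 2 lay among the sedentary mice (difference 0.36, limma adjusted p = 0.939). Cntf, a survival factor of glia, was the 1 member below all sedentary libraries (4.17%, against 1.63% of all genes). It was at 0.651, 0.797 and 0.787 FPKM against 0.800 to 1.28, a gap within the spread of either group. Igf2, an insulin-like growth factor made by vessels and meninges, was at 9.42, 5.31 and 9.32 FPKM in runners, 14.7, 21.8 and 16.1 in sedentary MPTP and 8.30, 19.3 and 10.4 in vehicle. Vegfa was at 11.2 to 12.3 FPKM in runners, 14.5 to 16.2 in sedentary MPTP and 11.4 to 12.03 in vehicle, so its pooled difference lay with the sedentary MPTP mice.

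Genes linked to Parkinson disease were on both sides, 12 of 22 higher and 10 lower (median 0.01). Vps35, the retromer subunit that sorts endosomal cargo, was the 1 member above all sedentary libraries (4.55%, against 0.813% of all genes). It was at 22.3, 20.8 and 21.4 FPKM in runners, 18.0, 19.1 and 18.2 in sedentary MPTP and 19.4, 18.0 and 17.4 in vehicle. The difference was 0.22 (SE 0.06, limma adjusted p = 0.939). Chchd2, a small mitochondrial protein, was at 61.2, 59.7 and 56.2 FPKM in runners and 43.3 to 57.7 in sedentary libraries. Here the overlap came from MPTP sedentary library 2 alone. Glucocorticoid-induced genes were higher in 16 of 19 (median 0.17, with 0.23 against sedentary MPTP and 0.06 against vehicle). Of these 19, 0 lay outside the sedentary range, beside 2.44% of all genes. Serpina3n, an astrocyte acute-phase gene, was at 8.75, 12.02 and 13.2 FPKM in runners and 6.54 to 9.32 in sedentary libraries, while 12 of the 17 reactive astrocyte genes were lower (median −0.19). That median was −0.18 against sedentary MPTP and −0.07 against vehicle, and the pooled one turned to 0.19 at a mean of at least 5 FPKM.

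The genes in the study's title belong to ferroptosis, a death by lipid peroxidation. Slc7a11, the cystine importer that protects from it, was at 3.53, 2.21 and 3.03 FPKM in runners, 3.09, 3.40 and 3.72 in sedentary MPTP and 2.80, 3.71 and 3.96 in vehicle, with wide overlap (exact two-sided permutation p = 0.238). Alox12, a lipoxygenase, was at 0.0756, 0.0593 and 0.105 FPKM in runners, 0.232, 0.164 and 0.144 in sedentary MPTP and 0.172, 0.196 and 0.187 in vehicle. Runners lay below every sedentary mouse, at levels under the filter of 0.5 FPKM. The exact permutation p was 0.0238, the smallest that 84 splits can give, and 0.143 after Benjamini-Hochberg adjustment over the 6 genes tested this way. Th, the first enzyme of dopamine synthesis, was at 2.66, 5.35 and 6.69 FPKM in runners, 5.93, 1.64 and 12.5 in sedentary MPTP and 5.30, 2.97 and 15.6 in vehicle (exact permutation p = 0.738). The exact p was 0.452 for Slc6a3, 0.524 for the vesicular transporter Slc18a2 and 0.452 for Ddc, the second synthesis enzyme. Of the wider lists, 9 of 24 ferroptosis suppressors (median −0.02) and 11 of 19 drivers (median 0.02) were higher. Among the drivers only Vdac3, a pore of the outer mitochondrial membrane, lay above the sedentary range, at 23.5 to 24.7 FPKM against 16.6 to 23.4. That is 5.26% of the drivers, against 0.813% of all genes.

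Some lists had a pooled difference although runners lay on opposite sides of the sedentary groups, or close to one of them. The interferon response had 28 of 33 members lower in the pooled comparison (median −0.13), with medians of −0.56 against sedentary MPTP and 0.26 against vehicle. Antigen presentation had medians of −0.26, −0.52 and 0.15 in the same order. H2-K1, a class I heavy chain, was at 6.41, 7.20 and 6.88 FPKM in runners, 12.1, 17.2 and 14.9 in sedentary MPTP and 5.13, 5.73 and 5.77 in vehicle. Igfbp2, which binds insulin-like growth factors, was at 14.6, 15.2 and 14.4 FPKM in runners, 26.6, 26.8 and 24.0 in sedentary MPTP and 13.1, 14.1 and 12.7 in vehicle. In both genes runners lay just above vehicle and far below sedentary MPTP, so they do not set runners apart from both groups. Choroid plexus markers, from the tissue that makes cerebrospinal fluid, had medians of −0.28, −1.07 and 0.44, and summed to 24.2 to 966 FPKM in runners, 974 to 2114 in sedentary MPTP and 42.5 to 356 in vehicle. Without running library 2 the pooled choroid plexus median turned to 0.11, with 13 of 17 higher. Thalamus markers had medians of −0.27, −0.04 and −0.50, on the same side against both groups. That pooled median was 0.015 without MPTP sedentary library 3 and −0.076 without vehicle library 1.

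**Figure D5:**
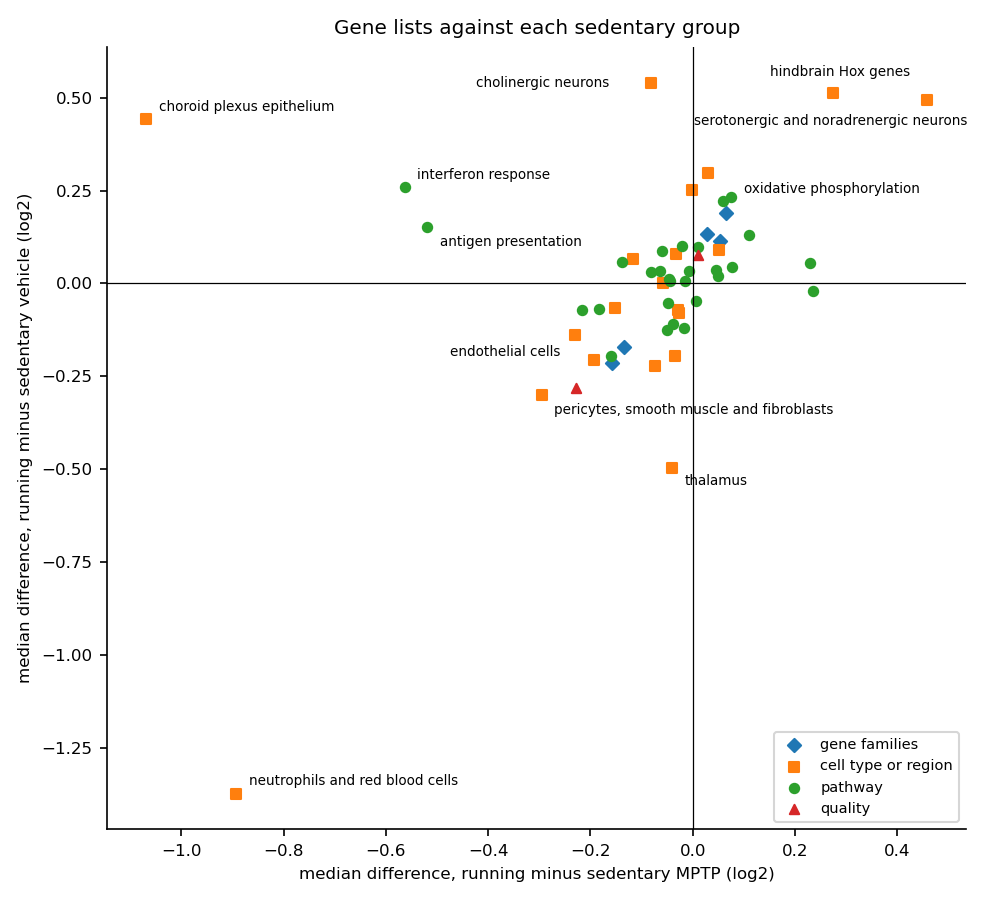
Median log2 difference of each gene list with at least 5 tested genes, against sedentary MPTP (x axis) and against vehicle (y axis), each symbol 1 list. Both axes use the same 3 running libraries. Lists in the upper left, such as interferon response (−0.56, 0.26), lie between the sedentary groups, and mural markers (−0.30, −0.30) lie equally far from both.

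For 5 broad classes of resident brain cells the median differences, beside −0.02 over all genes, were 0.03 for 16 astrocyte genes, −0.02 for 18 genes of oligodendrocytes and myelin, −0.05 for 13 genes of oligodendrocyte precursors, −0.03 for 22 genes of resting microglia and 0.02 for 14 pan-neuronal genes. The microglia median took opposite sides of the sedentary groups. It was −0.12 against sedentary MPTP, with 18 of 22 genes lower, and 0.06 against vehicle, with 16 of 22 higher. No gene of these 5 lists lay outside the sedentary range. As 2.44% of all genes did, a count of 0 says little for lists of this size. Lists of regional neurons lay further from 0, at −0.14 for 15 genes of GABAergic neurons of the pars reticulata and 0.48 for 8 serotonergic and noradrenergic genes. The latter median ranged from 0.15 to 1.08 over the alternatives. Again 0 lay outside the range, beside 2.44% of all genes. Dopaminergic markers were split, 9 of 18 higher (median 0.00), with differences of −0.90 for Slc6a3 and 0.40 for Slc18a2. Neither gene separated runners from sedentary mice. Immediate early genes, which report recent neuronal activity, were higher in 22 of 32 (median 0.13), 0.23 against sedentary MPTP and −0.02 against vehicle. Without running library 1 that median was −0.055.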

How the data were processed

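RNA of the substantia nigra was sequenced in 9 libraries. The deposited table holds FPKM that the authors computed; the submitters' processing notes name bcl2fastq, HTSeq, DESeq2 and GRCm38, and no aligner, FPKM tool or strandedness is recorded there. Nothing states that each library is a separate mouse, so p-values describe the spread among libraries, which may be technical. The FPKM were used unchanged. Symbols, exon lengths and coordinates came from GENCODE M21 on GRCm38 (55154 genes matched, 181 not).

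The 15997 genes whose mean reached 0.5 FPKM were fitted with limma on log2(FPKM + 1) with a mean-variance trend, 3 group means and 6 residual degrees of freedom. Running was set against the average of both sedentary groups and against each, two-sided, with Benjamini-Hochberg adjustment and a threshold of 0.05. The fit was tested on simulated data. The 2 title genes and 4 dopaminergic markers had an exact permutation test.

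The comparison and the gene lists were chosen with earlier results of these data known. Named genes are, per direction, the 12 of lowest p with a symbol other than a Gm, Rik or Mir name, a mean of 1 FPKM or more, the same direction against each sedentary group and all 3 running values outside the sedentary range, the 6 single genes, up to 4 members of a pathway list or 2 of a marker list with the smallest p, and list members outside the range. Members outside this rule (Mapre1, Mapre3, Hba-a1, Bdnf, Vegfa, Chchd2 and others given beside these) were named after their values were seen, and 6 families were added then. Of the list symbols 1 had no match. Same-numbered libraries did not all deviate together for runners (r −0.34, −0.13 and 0.25 with sedentary MPTP, and −0.26, 0.007 and 0.24 with vehicle). Differently numbered pairs with a runner ranged from −0.39 to 0.40. For sedentary MPTP with vehicle, same-numbered r was 0.25, 0.33 and 0.11, beside −0.35 to 0.17 for differently numbered pairs. Runners were therefore not taken as paired. Software was R 4.3.3, limma 3.58.1 and Python 3.11.15.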

Additional observations from a re-analysis of the deposited data

Results flagged for a closer look

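In 7 of 81 checks over the 6 sedentary libraries, 1 library stood apart from the other 5, with a gap to its neighbour, as a share of the whole range, above Dixon's critical value of 0.625. Chance alone gives such a gap in about 1 of 20 checks. For Timm10 the gap was 0.723: MPTP sedentary library 2 was at 21.1 FPKM against a median of 16.4, and it lies just below the runners. For the mean log2(FPKM + 1) of the nuclear and long noncoding RNA list it was 0.828, with MPTP sedentary library 2 the lowest. For the neutrophil and red blood cell list it was 0.756, with vehicle library 3 at 4.18 against a median of 2.67. The glucocorticoid list gave 0.681 and the mitochondrial genome 0.650 (0.64959), both from MPTP sedentary library 1. Familial Parkinson disease genes gave 0.650 (0.64963) and synaptic vesicle genes 0.694, both from vehicle library 2.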

How the results depend on the processing

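With 3 libraries per group and no running vehicle mice, running and MPTP are not crossed. No gene passed, so counts of separated genes and list medians describe these libraries only.

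The pooled comparison called 0 genes in every alternative that kept all libraries, and the replicate block also called 0 (867 at an unadjusted p under 0.05). Leaving out 1 library gave 0 to 1 gene (Dnase2a, Mapre2, Tmem56, Zbtb9, Pdxp or Gm28048, each in 1 case). Against sedentary MPTP the count was 3 without a filter on FPKM and 1 (Igfbp2) at a mean of at least 5 FPKM, with the same FPKM sum and with array weights. Leaving out 1 library gave 0 to 25, the 25 without MPTP sedentary library 1, among them Gbp4, Tgtp1 and H2-K1. Against vehicle it was 0 to 2. Genes outside the sedentary range numbered 642 without a filter and 132 at a mean of at least 5 FPKM, where fewer or more genes were tested, and 481 to 1573 with 1 library left out, where the range has fewer values to clear: 1573 without running library 2 and 1466 without MPTP sedentary library 2. Of the 27 lists with a median over 0.1 in size, 8 turned direction in some alternative, as did 22 of the 30 with a smaller median. The larger medians that turned were reactive astrocytes (0.19) and cholinergic neurons (−0.16) at 5 FPKM, and cholinergic neurons (−0.042) and Hox genes (−0.061) with array weights. With 1 library left out, immediate early genes ranged from −0.055 to 0.24, thalamus from −0.49 to 0.015, hippocampus and cortex from −0.046 to 0.50, striatal neurons from −0.46 to 0.13, cholinergic neurons from −0.17 to 0.41 and choroid plexus from −0.53 to 0.11. The cause of these turns was not tested. The 24 named single genes kept their direction in all alternatives. For pseudocounts, filters and left-out libraries this was fixed in advance, because these genes were chosen for lying outside the sedentary range. Centring by length class was added after seeing the data.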
